A study of Sus scrofa with 16 samples.

Results

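Ion channels that open with the membrane voltage were followed in the pituitary of pigs with low or high feed conversion. The genes were those whose symbol in the authors' comparison starts with CACNA, CACNB or CACNG (calcium channels), with KCN and a letter (potassium channels) or with SCN and a digit (sodium channels), with at least 10 counts in 8 or more pigs. This gave 15 of the 25880 genes in the count table, and 13 of them are described, namely 4 calcium, 8 potassium and 1 sodium channel gene. RNA was sequenced from the whole pituitary of 16 Złotnicka White gilts, a native Polish breed. The 8 gilts of the LFC group had low feed conversion, that is, they used little feed for each unit of weight gain, and the 8 gilts of the HFC group had high feed conversion. All were labelled as female and day 180, were kept on the same feed and housing at a test station until slaughter at a set body weight, and came unrelated from different farms, which the labels do not give for each pig. The groups were formed from the pigs' own feed conversion and no pig was treated, so a difference between them is a difference between selected animals. According to the paper, the HFC pigs of this breed also spent longer in the test, gained weight more slowly and had thicker fat at several points. The shared day label therefore does not show that the groups were of equal age. The parts of age, growth and fatness in the differences between groups were not tested.

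Hormone cells of the pituitary are electrically excitable. Calcium channels let in the calcium that triggers hormone release, sodium channels help to start the action potential, and potassium channels end it and set how often it fires. A channel consists of a pore subunit and, in most families, auxiliary subunits that bring the pore to the membrane or change its gating. The genes followed here are a mix of both kinds. The calcium group holds 1 pore subunit, CACNA1C, and 3 auxiliary genes, CACNA2D1, CACNB1 and CACNB3. The potassium group holds the pore subunits KCNA5, KCNH3 and KCNQ1, the auxiliary genes KCNAB2, KCNAB3, KCNE3 and KCNIP2, and KCNJ8. KCNJ8 matches the name pattern but is not voltage-gated, since it encodes an inward rectifier that cellular ATP closes. SCN3B, of the sodium group, encodes an auxiliary beta subunit.

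All 13 genes passed the expression filter of the test across genes. In 12 of them every pig had at least 10 counts, and KCNJ8 reached 10 counts in 15 pigs, with 7 to 24 counts per pig. Expression is given as CPM, the counts of a gene relative to the scaled size of the library, and a positive log2 fold change means a higher level in the HFC pigs. No exonic length was at hand, so levels of different genes are not compared with each other. Libraries held 6010629 to 11794256 counts, with a median of 7803047 in the LFC and 9027332 in the HFC pigs. Hormone transcripts were abundant, as the summed level of the 12 hormone cell genes found was 97597 to 193920 CPM in the LFC and 105060 to 217960 CPM in the HFC pigs. Summed glia and myelin genes were above 1000 CPM in 3 LFC pigs (replicates 1, 5 and 7) and in 1 HFC pig (replicate 6), and between 125.4 and 264.1 CPM in all others. In RNA of a whole gland, fewer cells of a type and less RNA per cell cannot be told apart.

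With the thresholds of the study, an adjusted p no higher than 0.05 together with a 1.3-fold difference, 0 of the 13 channel genes differed between HFC and LFC pigs in edgeR, where the background was 0.0% of the 13621 genes tested and the smallest adjusted p of all genes was 0.372. Without adjustment, 0 of the 13 genes had a p no higher than 0.05, against 11.4% of all genes. DESeq2, the tool named in the study, called 29 of the 13446 genes to which it gave an adjusted p (0.216%) and none of the 13. With the same tool and thresholds, the paper reported far more genes in this breed, among them CACNA1C and ANK2, a partner gene described below. Why these calls differ was not tested. The level was higher in the HFC pigs for 7 of the 13 genes and lower for 6, with a median log2 fold change of 0.12 against -0.01 for all genes tested. By group, the median was 0.15 for the 4 calcium and -0.04 for the 8 potassium channel genes.

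**Figure D1:**
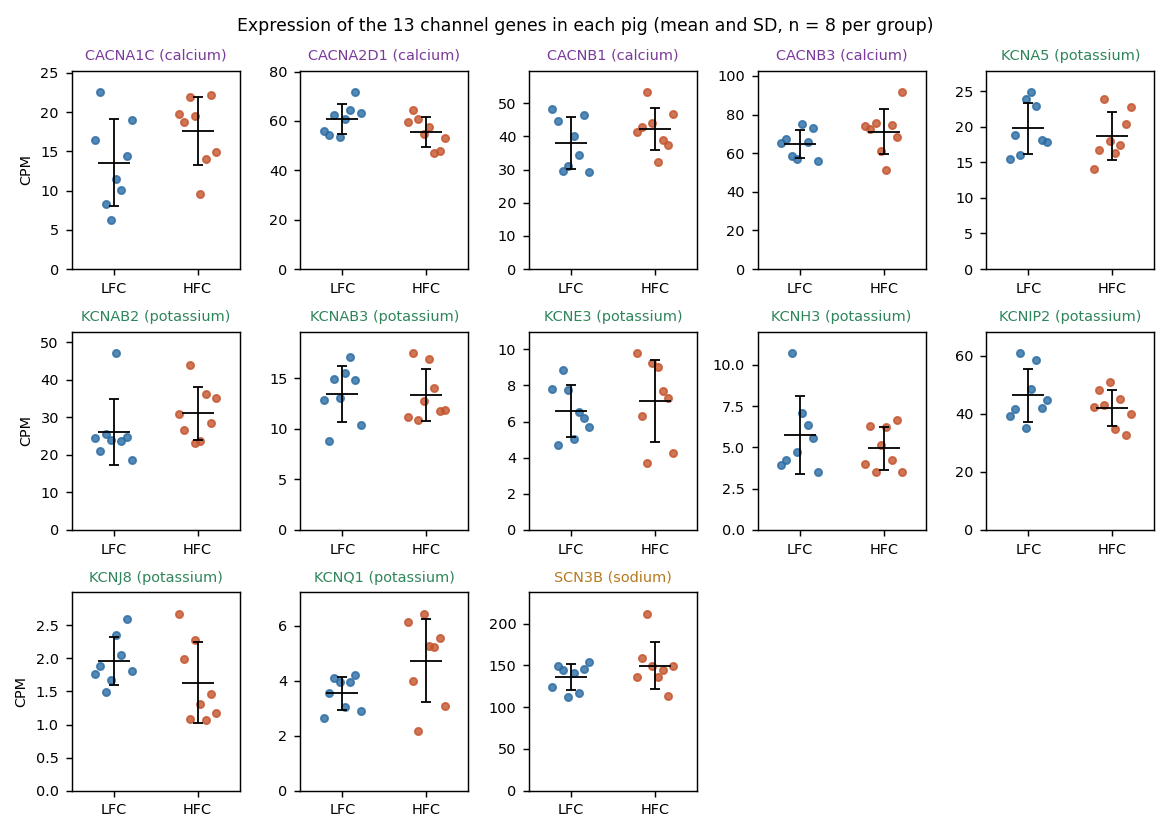
Each panel shows the level of 1 of the 13 channel genes in CPM (y axis, from 0) for the 8 LFC and the 8 HFC pigs, with 1 point per pig and the mean and SD of the group as bars. In every panel the points of the groups overlap, and single high points stand out for KCNAB2 in the LFC pigs and for SCN3B in the HFC pigs.

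SCN3B (ENSSSCG00000024299, chr9:50508194-50532038, Sscrofa11.1) encodes a beta subunit of sodium channels, which binds the pore without a covalent link and alters its inactivation. The LFC pigs had 111.9, 142.7 and 154.1 CPM as lowest, median and highest level, and the HFC pigs 113.4, 146.8 and 211.9 CPM. The ranges overlapped, with 2 HFC pigs above every LFC pig, and of these HFC replicate 3 at 211.9 CPM stood well above the next at 158.3 CPM. In edgeR the log2 fold change was 0.14 ± 0.11 (SE, 8 pigs per group; adjusted p = 0.565, exact permutation p = 0.275), with a 95% interval of -0.09 to 0.37. The exact test was two-sided and went over every way to divide the 16 pigs into equal groups, here and for the genes below. Without HFC replicate 3 it was 0.05.

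Among the calcium channel genes, CACNA1C had the largest log2 fold change of the 4, and it also had the widest spread. CACNA1C (ENSSSCG00000027725, chr5:69271053-69448130) encodes the pore of an L-type channel, the high-voltage type whose calcium current supports hormone release in endocrine cells. Its levels were 6.24, 12.9 and 22.6 CPM in the LFC pigs and 9.58, 19.1 and 22.1 CPM in the HFC pigs (lowest, median and highest). All but 1 HFC pig lay above the LFC median, yet the highest value of all belonged to an LFC pig. Between the groups the log2 fold change was 0.37 ± 0.23 (SE, 8 pigs per group; edgeR, adjusted p = 0.490, exact permutation p = 0.12) with a 95% interval of -0.11 to 0.86. The coefficient of variation was 41.2% among LFC and 24.8% among HFC pigs, while counting error alone would give 8.63%. Leaving out LFC replicate 2, the highest pig, gave 0.52, and leaving out HFC replicate 5 gave 0.48, each with an unadjusted p under 0.05. The Ensembl model of the gene spans 177078 bases, whereas the RefSeq gene spans 431475, so reads outside the shorter model would not have been counted.

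The level of CACNA1C followed a property of the whole library. In each pig, the log2 CPM of a gene was taken as its deviation from the mean of that gene over all pigs. This deviation was set against the log10 of the gene's span in the genome, for genes with a position in the authors' comparison. The slope of this line tells whether long genes were read relatively often in a pig, compared with the mean of the pigs. The slope was -0.285, -0.037 and 0.122 log2 units per 10-fold span in the LFC pigs (lowest, median and highest) and -0.221, 0.068 and 0.220 in the HFC pigs, and the group means were 0.12 apart (exact two-sided permutation test, p = 0.126). CACNA1C had r = 0.855 with this slope (adjusted p = 0.000281 over all genes) and rho = 0.806 (adjusted p = 0.00202), both by permutation. The relation held without LFC replicates 4 and 6, the pigs farthest from the median slope (r = 0.792), within the LFC pigs (r = 0.825, exact p = 0.0123) and within the HFC pigs (r = 0.845, exact p = 0.0166). Such a relation was common, as 42.9% of all genes had an adjusted p of at most 0.05, and among the 13 channel genes 3 did. Besides CACNA1C these were CACNB1 (r = 0.621, rho = 0.603, adjusted permutation p of r 0.0271) and, with the opposite sign, KCNAB3 (r = -0.583, rho = -0.618, adjusted permutation p of r 0.0422). Without LFC replicates 4 and 6 their r values were 0.533 and -0.624. The slope was chosen as a measure after the data had been seen, and its part in the differences between groups was not tested beyond a correction of each pig for the trend. With that correction, the log2 fold change of CACNA1C was 0.29 (edgeR, adjusted p = 0.497).

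CACNA2D1 had the smallest spread of the 4 calcium channel genes and was the only gene of them with a lower mean in the HFC pigs. CACNA2D1 (ENSSSCG00000015402, chr9:97781051-98266969) encodes an alpha-2-delta subunit, the extracellular protein that raises the number of calcium channels at the membrane and is the target of gabapentin. The LFC pigs had 53.4, 61.7 and 71.8 CPM and the HFC pigs 47.1, 56.2 and 64.4 CPM (lowest, median and highest). The groups overlapped, with 7 of 8 HFC pigs below the LFC median and 3 below every LFC pig. HFC pigs differed from LFC pigs by a log2 fold change of -0.13 ± 0.09 (SE, 8 pigs per group; edgeR, adjusted p = 0.507, exact permutation p = 0.112), with a 95% interval of -0.31 to 0.05. Its gene spans 485919 bases, and after the correction for gene span the log2 fold change was -0.27 (edgeR, adjusted p = 0.390), whereas without the 4 pigs rich in glia and myelin RNA it was -0.07. The coefficient of variation within the groups was 10.5%.

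The beta subunits CACNB1 and CACNB3, cytoplasmic proteins that carry the pore to the membrane and shift its activation, both had slightly higher means in the HFC pigs. CACNB1 (ENSSSCG00000017510, chr12:23037816-23063923) was at 29.4, 37.2 and 48.3 CPM in the LFC and 32.3, 42.2 and 53.4 CPM in the HFC pigs. CACNB3 (ENSSSCG00000032967, chr5:14874001-14891556) was at 55.8, 65.5 and 75.0 CPM in the LFC and 51.3, 73.1 and 91.7 CPM in the HFC pigs. The groups overlapped in both genes, although 7 of 8 HFC pigs for CACNB1 and 6 of 8 for CACNB3 were above the LFC median. The log2 fold change of CACNB1 was 0.15 ± 0.13 (SE, 8 pigs per group; edgeR, adjusted p = 0.579, exact permutation p = 0.225) with a 95% interval of -0.11 to 0.42, and it was 0.10 without HFC replicate 3 and 0.34 without the 4 pigs rich in glia and myelin RNA. For CACNB3 it was 0.14 ± 0.10 (edgeR, adjusted p = 0.546, exact permutation p = 0.239) with an interval of -0.08 to 0.36, and without HFC replicate 5 it was 0.21 with an unadjusted p under 0.05, against 0.10 without HFC replicate 8. Of the span of CACNB3, 14.8% overlaps DDX23, an RNA helicase gene, so reads there could belong to either gene.

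CACNA1C was set against its 3 auxiliary subunit genes across the 16 pigs. CACNB1 had r = 0.618 (permutation p = 0.0111, adjusted p = 0.039) and rho = 0.497 (permutation p = 0.0531, adjusted p = 0.140). Without LFC replicates 3 and 4 r was 0.401, and within the groups r was 0.536 (exact p = 0.169) and 0.624 (exact p = 0.107) in LFC and HFC, so that the relation rests partly on those pigs. For CACNB3 r was 0.392 (permutation p = 0.135; rho = 0.306, permutation p = 0.252) and for CACNA2D1 -0.118 (permutation p = 0.665; rho = -0.165, permutation p = 0.544). With CACNA1C, 1 of the other 12 channel genes had an adjusted p of at most 0.05 for r, against 31.6% of all genes, so that such a relation was no more frequent among them than among genes in general.

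**Figure D2:**
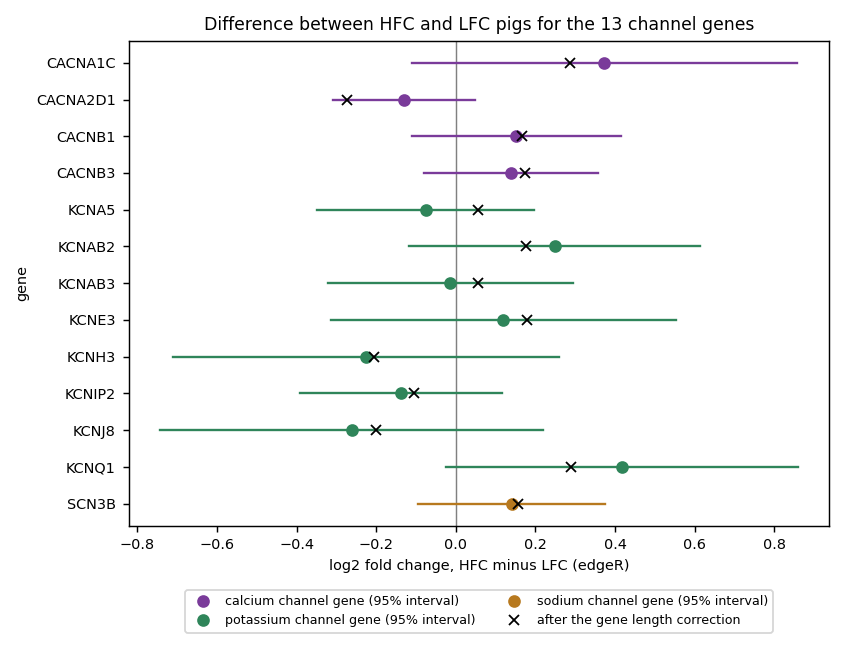
The x axis gives the log2 fold change between HFC and LFC pigs for the 13 channel genes on the y axis, with filled points for the estimate, lines for its 95% interval and crosses for the estimate after the correction for gene span. All 13 intervals hold 0, and the crosses lie further below 0 for CACNA2D1 and nearer to it for CACNA1C and KCNQ1.

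Of the 8 potassium channel genes, none had an unadjusted p of 0.05 or less, and KCNQ1, higher in the HFC pigs, came nearest. KCNQ1 (ENSSSCG00000039556, chr2:1675304-1989503) encodes the pore of a slow delayed rectifier, which in epithelia and heart works together with small KCNE subunits. It was at 2.65, 3.74 and 4.21 CPM in the LFC pigs and at 2.18, 5.24 and 6.44 CPM in the HFC pigs. The LFC pigs lay close together, and 5 of 8 HFC pigs were above all of them, but HFC replicate 3 was the lowest pig. In edgeR the log2 fold change was 0.42 ± 0.21 (SE, 8 pigs per group; adjusted p = 0.444, exact permutation p = 0.101), with a 95% interval of -0.03 to 0.86. It was 0.52 both without HFC replicate 3 and without HFC replicate 8, with an unadjusted p under 0.05. With the correction for gene span it was 0.29 (edgeR, adjusted p = 0.534). Between 20 and 65 counts per pig lay behind these values, and counting error alone gives a coefficient of variation of 16.98%, as large as that observed among the LFC pigs, against 31.9% among the HFC pigs. A long non-coding RNA of the annotation covers 9.18% of the span of KCNQ1, so reads there could belong to either gene.

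KCNE3 (ENSSSCG00000029323, chr9:8810703-8822341) encodes a subunit with a single membrane span that keeps KCNQ1 channels open. The LFC pigs had 4.73, 6.35 and 8.86 CPM and the HFC pigs 3.70, 7.48 and 9.81 CPM. The HFC pigs spread on both sides of the LFC range, with 3 above it and 2 below it. Between the groups the log2 fold change was 0.12 ± 0.21 (SE, 8 pigs per group; edgeR, adjusted p = 0.797, exact permutation p = 0.697), with a 95% interval of -0.31 to 0.55. It moved both ways with a pig left out, to 0.04 without HFC replicate 1 and to 0.23 without HFC replicate 8. A long non-coding RNA of the annotation covers 81.2% of the span of KCNE3, and the overlap of exons was not examined. Without the strand, reads in any shared exons could belong to either gene.

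KCNE3 was also the channel gene that varied most closely with KCNQ1. Over 16 pigs the pair had r = 0.766 (permutation p = 0.00072) and rho = 0.703 (permutation p = 0.00323), but with adjustment over all genes these p-values were 0.181 and 0.494. Of all genes, 0.257% had an r with KCNQ1 at least as far from 0, and 0.0% passed the adjustment. Within the HFC pigs r was 0.966 (exact p = 0.000521) and within the LFC pigs 0.25 (exact p = 0.538), and the difference between the groups was not tested. Without HFC replicates 3 and 4, which lay at the extremes of KCNQ1, r was 0.642. The pair was looked at because both proteins form a channel, after the levels had been seen.

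Genes of blood vessels varied with this pair in the HFC pigs, but the relation was not shown to be particular to vessels. With the summed level of 8 endothelium and pericyte genes, KCNQ1 had r = 0.811 (permutation p = 0.00013, adjusted p = 0.0361) and rho = 0.682 (permutation p = 0.0043, adjusted p = 0.219), where 0.521% of all genes had an adjusted p of at most 0.05 for r. For KCNE3 r was 0.705 (permutation p = 0.00217, adjusted p = 0.139) and rho 0.624 (permutation p = 0.0118, adjusted p = 0.270). Within the HFC pigs the r values were 0.962 (exact p = 0.000248) for KCNQ1 and 0.927 (exact p = 0.000769) for KCNE3, and within the LFC pigs 0.0579 (exact p = 0.909) and -0.116 (exact p = 0.782). HFC replicates 1 and 4 had the most of these vessel genes, 376.6 and 315.7 CPM, and HFC replicate 3 the least, 108.6 CPM. Without HFC replicates 1 and 3, r was 0.683 for KCNQ1 and 0.467 for KCNE3. KCNA5 varied with the vessel genes in the other direction, with r = -0.630 over all pigs (permutation p = 0.00752, adjusted p = 0.225). Within the HFC pigs its r was -0.795 (exact p = 0.0181). KCNQ1 also had r = -0.769 with PRL, the prolactin gene, within the HFC pigs (exact p = 0.0255). Within the LFC pigs this r was 0.507 (exact p = 0.201), and over all pigs 0.145 (permutation p = 0.592). Fibroblast genes in sum were also highest in HFC replicates 1 and 4 (869.0 and 534.7 CPM). Among the HFC pigs they were lowest in replicate 3 (297.2 CPM). Summed hormone cell genes were highest in HFC replicates 2, 3 and 8 (217960, 204650 and 206760 CPM), the HFC pigs with the lowest KCNQ1. The fibroblast and hormone cell lists were not correlated with the channel genes. The summed vessel list was 161.2, 202.7 and 237.5 CPM in the LFC and 108.6, 238.2 and 376.6 CPM in the HFC pigs. The part of vessel, fibroblast or hormone cells in the levels of KCNQ1 and KCNE3 was not tested.

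**Figure D3:**
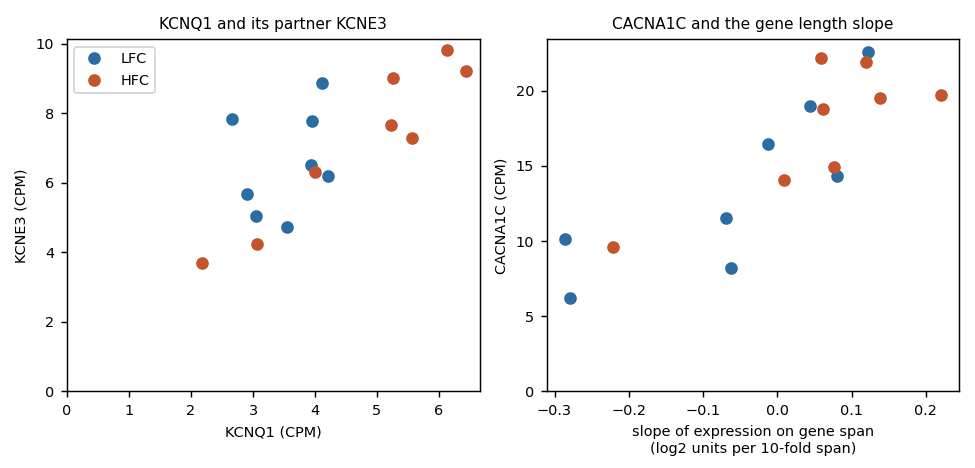
Each point is 1 of the 16 pigs, coloured by group. The left panel sets KCNE3 against KCNQ1 (both CPM), and the right panel CACNA1C (CPM) against the slope of expression on gene span. The HFC points lie along a line on the left, and both groups do so on the right.

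KCNAB2 and KCNAB3 encode cytoplasmic beta subunits of Shaker-type channels, related in sequence to aldo-keto reductases. KCNAB2 (ENSSSCG00000020749, chr6:66927922-67018183) was at 18.5, 24.3 and 47.2 CPM in the LFC and at 23.2, 29.7 and 44.0 CPM in the HFC pigs. LFC replicate 5, the pig with the most glia and myelin RNA, was at 47.2 CPM while the next LFC pig was at 25.4, and 6 of 8 HFC pigs lay above the LFC median. The log2 fold change was 0.25 ± 0.17 (SE, 8 pigs per group; edgeR, adjusted p = 0.523, exact permutation p = 0.16), with a 95% interval of -0.12 to 0.61. Without LFC replicate 5 it was 0.43, and without all 4 pigs rich in glia and myelin RNA it was 0.43 as well, both with an unadjusted p under 0.05, while without HFC replicate 3, the highest pig of its group, it was 0.16. The part of the myelin RNA in the level of KCNAB2 was not tested.

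KCNAB3 (ENSSSCG00000037973, chr12:53171319-53180823) was at 8.75, 14.0 and 17.1 CPM in the LFC and 10.9, 12.3 and 17.5 CPM in the HFC pigs, with the groups lying over each other. Its log2 fold change was -0.01 ± 0.15 (SE, 8 pigs per group; edgeR, adjusted p = 0.971, exact permutation p = 0.988), and the 95% interval of -0.32 to 0.29 allows a difference in either direction. A long non-coding RNA covers 59.5% of its span and TRAPPC1, a vesicle tethering gene, covers 16.5%, so its reads may in part be theirs. KCNA5 (ENSSSCG00000021596, chr5:65440133-65441935), a Shaker-type delayed rectifier pore to which such beta subunits bind, was at 15.5, 18.5 and 24.9 CPM in the LFC and at 14.0, 17.8 and 23.8 CPM in the HFC pigs. Its groups overlapped almost fully. Its log2 fold change was -0.08 ± 0.13 (SE, 8 pigs per group; edgeR, adjusted p = 0.795, exact permutation p = 0.538) with a 95% interval of -0.35 to 0.20, and it was between -0.13 and -0.02 with a pig left out. The sign was not stable, since it was 0.05 after the correction for gene span. Over the 16 pigs KCNA5 had r = 0.416 with KCNAB2 (permutation p = 0.110; rho = 0.174, permutation p = 0.520) and r = -0.018 with KCNAB3 (permutation p = 0.946; rho = -0.0529, permutation p = 0.848).

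The remaining potassium channel genes all had lower means in the HFC pigs, with intervals that held 0. KCNIP2 (ENSSSCG00000010570, chr14:112857063-112876439), a calcium-binding protein that attaches to the pores of the fast A-type current, was at 35.3, 43.4 and 61.1 CPM in the LFC and 32.7, 42.7 and 50.9 CPM in the HFC pigs. The LFC pigs reached higher, with 2 of them above every HFC pig. Its log2 fold change was -0.14 ± 0.12 (SE, 8 pigs per group; edgeR, adjusted p = 0.598, exact permutation p = 0.315; 95% interval -0.39 to 0.12), and it was -0.05 without LFC replicate 3. KCNH3 (ENSSSCG00000000203, chr5:15495251-15517458), a pore of the ether-a-go-go family, was at 3.51, 5.14 and 10.7 CPM in the LFC and 3.48, 4.71 and 6.65 CPM in the HFC pigs. Its value of 10.7 CPM belonged to LFC replicate 3. In edgeR the log2 fold change was -0.23 ± 0.23 (SE, 8 pigs per group; adjusted p = 0.650, exact permutation p = 0.462; 95% interval -0.71 to 0.26), and without that pig it was -0.02.

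KCNJ8 (ENSSSCG00000000573, chr5:51695974-51707039) forms the pore of an ATP-sensitive channel that is best known from pericytes and vascular smooth muscle. It was at 1.5, 1.85 and 2.60 CPM in the LFC and at 1.07, 1.39 and 2.68 CPM in the HFC pigs. All 8 LFC pigs lay above the HFC median and 5 of 8 HFC pigs lay below every LFC pig, but the highest pig was an HFC pig, replicate 1. Between the groups the log2 fold change was -0.26 ± 0.23 (SE, 8 pigs per group; edgeR, adjusted p = 0.598, exact permutation p = 0.159; 95% interval -0.74 to 0.22), and without HFC replicate 1 it was -0.40. With 7 to 24 counts per pig, counting error alone gives a coefficient of variation of 26.0%, and without the 4 pigs rich in glia and myelin RNA the log2 fold change was -0.06. ABCC9, the sulfonylurea receptor with which KCNJ8 assembles, was at 2.32 ± 0.671 CPM in the LFC and 2.80 ± 1.72 CPM in the HFC pigs (SD, n = 8 each), with a log2 fold change of 0.27 ± 0.33 (SE; edgeR, adjusted p = 0.710).

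Levels were also set against the hormone genes POMC, PRL, GH1 and CGA and the myelin gene MBP, which stand for cell types of the gland, in 65 pairs. With adjustment over all genes for each of these hormone and myelin genes alone, 1 of the 65 pairs passed for Pearson's r. No adjustment was made across the pairs. CACNB3 had r = -0.687 with CGA, the shared alpha subunit of the glycoprotein hormones (permutation p = 0.00309, adjusted p = 0.026), and rho = -0.659 (permutation p = 0.00688, adjusted p = 0.0521), where 20.3% of all genes passed with CGA. Without LFC replicates 4 and 8 r was -0.586, and it was -0.747 within LFC (exact p = 0.0314) and -0.604 within HFC (exact p = 0.12). The other strong pairs did not pass. KCNE3 had r = -0.680 with GH1, the growth hormone gene (permutation p = 0.00387, adjusted p = 0.248; rho = -0.659, permutation p = 0.00701), and -0.658 without HFC replicates 6 and 8, -0.741 within LFC (exact p = 0.0336) and -0.658 within HFC (exact p = 0.0808). With POMC, the corticotropin precursor, where 0.0808% of all genes passed and none of the 13, KCNH3 had r = 0.659 (permutation p = 0.0054, adjusted p = 0.803; rho = 0.529, permutation p = 0.0372), and 0.593 without LFC replicates 2 and 3, 0.763 within LFC (exact p = 0.0245) and 0.599 within HFC (exact p = 0.114). With the summed glia and myelin genes, 1.77% of all genes passed and none of the 13, whose r values were between -0.169 and 0.390. In all, 140 pairs with 11 measures were computed.

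The count table held 111 further genes of the same name patterns that the authors' comparison does not list by symbol, and 64 of them were tested. Among the 64, CACNA1H alone is in that comparison, under its identifier and without a symbol. This set was described because it holds most of the pores to which the auxiliary subunits above belong. Of the 64, 11 were higher and 2 lower in the HFC pigs with an unadjusted p of 0.05 or less. This was 20.3% in all, against 11.4% of all genes (7.03% higher and 4.41% lower). None of the 64 passed the adjustment, and their median log2 fold change was 0.14. Calcium channel genes made up 5 of the 11, out of 13 tested with a median of 0.35. They were the P/Q-type pore CACNA1A (18.01 ± 6.54 CPM in LFC and 29.1 ± 7.23 in HFC, SD, n = 8 each; log2 fold change 0.69 ± 0.22, adjusted p = 0.413), the R-type pore CACNA1E (0.69 ± 0.22), the L-type pore CACNA1D (0.67 ± 0.23), the T-type pore CACNA1H (0.35 ± 0.13) and the alpha-2-delta subunit CACNA2D2 (0.48 ± 0.18), each with an adjusted p of 0.413 in edgeR. Gene spans came from the authors' comparison, so of the 64 genes only CACNA1H could enter the correction for gene span. The part of gene span in these differences was not tested. CACNA1D encodes the other L-type pore tested beside CACNA1C, and CACNA2D2 is a relative of CACNA2D1 with a log2 fold change of the other sign. All 4 beta subunit genes tested, CACNB1 to CACNB4, had log2 fold changes between 0.14 and 0.29 and unadjusted p above 0.05.

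In the potassium set of 44 further genes, 5 were higher and 2 lower at that threshold (15.9% in all, against 11.4% of all genes), with a median of 0.03. The higher genes were the ether-a-go-go pores KCNH6 (log2 fold change 0.62) and KCNH2 (0.33), the calcium-activated pore KCNN3 (0.61), the Shaker beta subunit KCNAB1 (0.44) and the leak channel KCNK6 (0.67). The lower genes were KCNMB4, a subunit of the large-conductance calcium-activated channel (-0.62), and KCNS3, a silent subunit that joins other pores (-0.42). KCNAB1 is the third Shaker beta subunit tested, beside KCNAB2 at 0.25 and KCNAB3 at -0.01. Of the 8 inward rectifiers tested, KCNJ8 among them, 7 had lower and 1 a higher mean in the HFC pigs, with a median of -0.25 and no unadjusted p at or below 0.05. Of the sodium channel genes 7 more were tested, and SCN8A, a pore of neurons, was higher in the HFC pigs (10.6 ± 1.91 CPM in LFC and 14.2 ± 3.03 in HFC, SD, n = 8 each; log2 fold change 0.41 ± 0.15, edgeR, adjusted p = 0.413). SCN2B, a beta subunit like SCN3B, had a log2 fold change of -0.27 ± 0.27 (edgeR, adjusted p = 0.633). Whether these sets differ from the 13 genes was not tested.

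**Figure D4:**
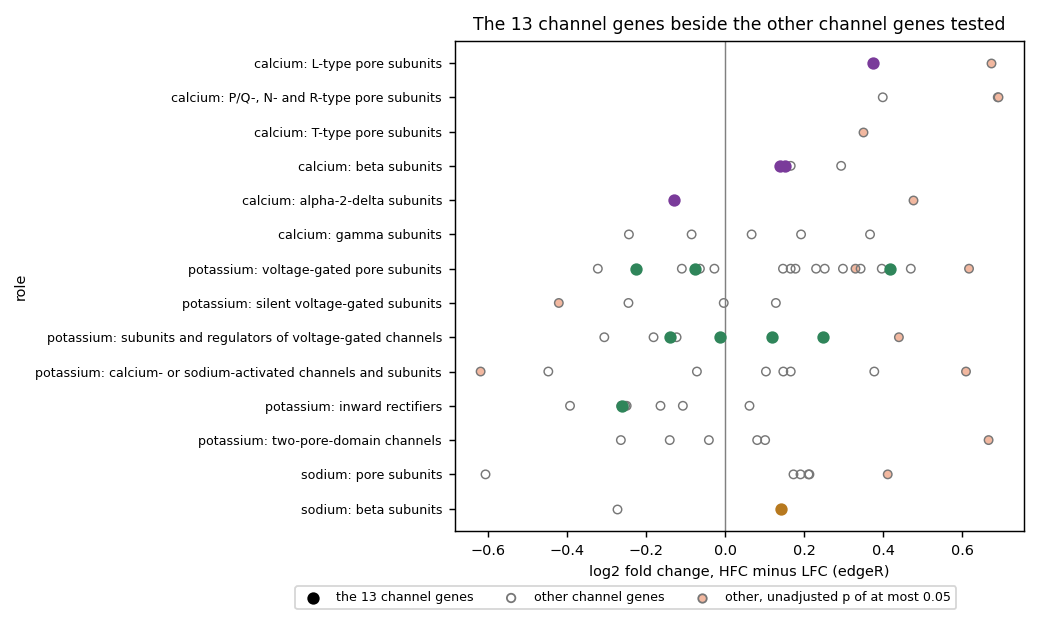
Every point is a channel gene, placed by its log2 fold change between HFC and LFC pigs (x axis) and its role in the channel (y axis). Large filled points are the 13 channel genes, small open points the other 64 tested, and shaded small points those of the 64 with an unadjusted p of at most 0.05. Shaded points lie to the right of 0 in the calcium channel roles, and 2 of them, KCNMB4 and KCNS3, lie to the left in the potassium channel roles.

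Genes whose products anchor, regulate or complement these currents were described as a list of 51 names, for which 39 Ensembl genes were tested. The mean was higher in the HFC pigs for 24 and lower for 15, with a median log2 fold change of 0.12. With an unadjusted p of 0.05 or less, 5 were higher and 1 lower (15.4% in all, against 11.4% of all genes), and none passed the adjustment. The count went from 6 to 3 after the correction for gene span, which covers only genes with a position in the authors' comparison. UNC79 (0.49) and UNC80 (0.45) belong to the sodium leak channel complex, ANK2 (0.59) and ANK3 (0.41) encode ankyrins that hold channels at the membrane, and REM2 (0.31) encodes a small GTPase that dampens calcium channels. The lower gene was GEM (-0.51 ± 0.23; edgeR, adjusted p = 0.429), another GTPase of that kind. CALM3, a calmodulin gene, was at -0.29 (edgeR, adjusted p = 0.486), and FGF13, an intracellular protein that binds sodium channel pores, was at -0.59 (edgeR, adjusted p = 0.538). The symbol CALM3 stands at 3 Ensembl genes, of which ENSSSCG00000008433 is meant here, and the counting could split reads among such near-identical copies.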

How the data were processed

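Whole pituitaries of 16 Złotnicka White gilts, 8 LFC and 8 HFC, were sequenced from libraries that kept no strand (TruSeq v2 kit, RNA integrity numbers over 7, single reads on a HiScanSQ). The deposited counts are whole numbers of reads per Ensembl gene of Sscrofa11.1 and pig, without normalization, made by the authors with trimming, STAR and RSEM (Bowtie 2 is also named). Submitters' processing notes also name CASAVA 1.8.2, FastQC and DESeq2, and the counting settings are not given in the sources used here. The authors also deposited their own comparison of the groups (group means, ratios, log2 ratios, p-values and adjusted p-values per gene), from which only symbols and positions were taken, for 10892 genes, 9550 with a symbol. Channel genes outside it were named from RefSeq-derived tables, by identifier (5875 genes) or by position on the same assembly (323 genes). No channel sequence is printed.

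In R 4.3.3, edgeR 4.0.16 was run with TMM scaling, its expression filter (13621 genes), quasi-likelihood tests and Benjamini-Hochberg adjustment over all genes tested, with calls at the thresholds of the study, an adjusted p no higher than 0.05 together with a 1.3-fold difference. Exact permutation tests and correlations used log2(CPM + 1), and correlations over 16 pigs had 100000 resamples. Alternatives were DESeq2 1.42.0, limma 3.58.1 voom with sample weights, RLE and total library scaling, other filters, a pseudocount of 0.1, a replicate block, a correction for gene span (lowess, span 0.3, 10890 genes) and each pig left out in turn. Leaving out the 4 pigs rich in glia and myelin RNA or the 3 pigs with slopes below -0.2, and the correlations other than those with POMC, PRL, GH1, CGA and MBP were added after seeing the data. Other steps ran in Python 3.11.15 with scipy 1.17.1, pandas 2.3.3 and numpy 2.4.6. The tests were tested on simulated data. Total counts were 6010629 to 11794256 per pig, and the common biological coefficient of variation was 0.249. The 95% intervals of fold changes came from the edgeR fit and include variation between pigs. Chi-square values of pairs of pigs within a group were 11.9 to 91.0 per degree of freedom, so no library was a copy of another. The deviations of pigs sharing a replicate number had r between -0.297 and 0.352 over the 8 pairs, with r over 0.1 in 2 of them. The channel genes and lists were chosen with earlier results of these data known. Results of some genes are not reported here, and every count and median leaves them out. The other 13 channel genes were all named, together with partner genes of the 3 smallest p in each direction, and ABCC9, UNC80, REM2 and the other channel genes at an unadjusted p of at most 0.05, CACNB2, CACNB4 and SCN2B were named after their values were seen. The second breed of the study and its qPCR data were not analysed here.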

Additional observations from a re-analysis of the deposited data

Results flagged for a closer look

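In KCNAB2, LFC replicate 5 stood apart from its group, with 47.2 CPM where the next LFC pig had 25.4, a gap of 0.759 of the range of the group against a critical value of 0.526 in Dixon's test. In SCN3B, HFC replicate 3 stood apart likewise, with 211.9 CPM where the next HFC pig had 158.3, a gap of 0.544 of the range. In all, 26 groups of 8 pigs were looked at, and chance alone marks about 1 in 20. LFC replicate 5 had 6116 CPM of summed glia and myelin genes, and HFC replicate 3 had 108.6 CPM of summed endothelium and pericyte genes, and the part of either in these values was not tested.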

How the results depend on the processing

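Under every alternative run, edgeR and limma called 0 of the 13 channel genes and 0 of all genes, and DESeq2 called 29 genes, none of them among the 13. The number of all genes at an unadjusted p of at most 0.05, 1559, was 2540 with limma voom and 989 (without HFC replicate 4) to 3514 (without HFC replicate 5) with a pig left out. For the calcium channel genes, 0 became 1 after the correction for gene span (CACNA2D1), with voom (CACNA1C at 0.46) and without the pigs rich in glia and myelin RNA (CACNB1 at 0.34), and 0 to 2 with a pig left out. For the potassium channel genes, 0 became 1 without the glia-rich pigs (KCNAB2) and when every pig had to have 10 counts (KCNQ1), and 0 to 1 with a pig left out. SCN3B was not at or under 0.05 in any setting. For the partner list, 6 became 3 after the correction for gene span, which leaves out genes without a position. It became 11 with voom, 10 without the low-slope pigs and 3 to 12 with a pig left out. The sign turned in KCNA5, at 0.0549 after the correction, 0.0118 with voom and 0.0411 without the low-slope pigs. It also turned in KCNAB3, at 0.0042 with 10 counts in every pig, 0.0548 after the correction, 0.0414 without the glia-rich pigs and between -0.084 and 0.058 with a pig left out. The cause was not tested. With the replicate block, 1404 genes were at or under 0.05 unadjusted, 0 were called and no channel gene crossed 0.05. Since same-numbered pigs were no closer than others (0 of 8 LFC pigs were closest to their own number), the numbers do not pair the pigs. With 10 counts required in every pig, KCNJ8 had no value. Counts were lowest for KCNJ8 and KCNQ1, at most 24 and 65 per pig, and no exonic length was at hand.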
